A study of Mus musculus with 2 samples.

Results

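The genes described here build and extend the cytoskeleton of nerve cells. They are 10 genes fixed by name: the neurofilament subunits Nefl, Nefm, Nefh and Ina, the growth-associated genes Stmn2 and Gap43, the neuronal tubulin gene Tubb3, and the microtubule-associated protein genes Map2, Mapt and Dcx. All 10 had a probe set annotated with their symbol alone, 19 probe sets in all, out of 12393 genes so represented on the array. The signals came from teratomas, tumours of mixed tissue that pluripotent cells form after transplantation, measured on Affymetrix mouse arrays. One pool came from C57BL/6 (B6) embryonic stem (ES) cells, the other from EiPS cells of the same strain, an induced pluripotent stem cell line for which the labels give 1 line name, and the series' design text describes the EiPS tumours as regressing. Both cell types had been placed under the skin of male B6 mice, whose age the labels do not give, and tumours were taken at week 6. No further genotype, allele or agent is named for either group. Each array carried RNA pooled from 2 tumours, with 1 array per group, so no difference below was tested or has a replicate check, and all values compare these 2 pools only.

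Neurofilaments are the intermediate filaments of axons. They are assembled from light, medium and heavy subunits (Nefl, Nefm, Nefh) together with alpha-internexin (Ina), which young neurons make early, and they fill and widen the axon as neurons mature. Microtubules are the tracks on which the axon grows and along which its cargo moves: Tubb3 encodes a beta-tubulin made mainly by neurons, tau (Mapt) binds microtubules in axons, Map2 binds them chiefly in dendrites, and doublecortin (Dcx) binds them in young, migrating neurons. Stmn2, a stathmin of the growth cone, frees tubulin from microtubules, and Gap43 is a membrane protein of growing axon tips.

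In the EiPS pool 9 of the genes had lower signals and Dcx had a higher one. The light neurofilament gene and both growth-associated genes differed most. Of the 10 genes, 4 were at least 2-fold lower (Nefl, Stmn2, Gap43 and Map2) and none at least 2-fold higher. Among all 10988 compared genes, 3.04% were at least 2-fold lower, 5.82% at least 2-fold higher, and 43.7% lower by any amount. The median log2 difference, EiPS minus B6 ES, was -0.93 over the 10 genes and 0.07 over all compared genes. These values use the authors' scaling; scaled to the arrays' poly-A controls, which moved the median of all compared genes to 0.45, 3 of the 9 lower genes (Nefh, Ina and Mapt) came out higher and 2 of the 10 were at least 2-fold lower. A gene's value is that of its brightest probe set, and a gene was compared if its signal reached a floor of 25.4 on at least 1 array. The signals of all 10 lay above it on both arrays. The SD of the log2 difference between probe sets of a single gene was 0.29 at mean signals over 1000 and 0.41 from 100 to 1000, which is the nearest gauge of measurement noise and leaves out variation between tumours. By that gauge, 7 of the 10 differences exceeded 2 SD, against 13.8% of all compared genes, and those of Nefh, Ina and Mapt did not. The 7 include Map2, whose other probe set, near the floor, went the opposite way. The SDs were grouped by the mean signal over a gene's probe sets, while each gene was placed by its brightest. The 10 genes were chosen with earlier results of these data known, which limits every comparison here with all genes.

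**Figure D1:**
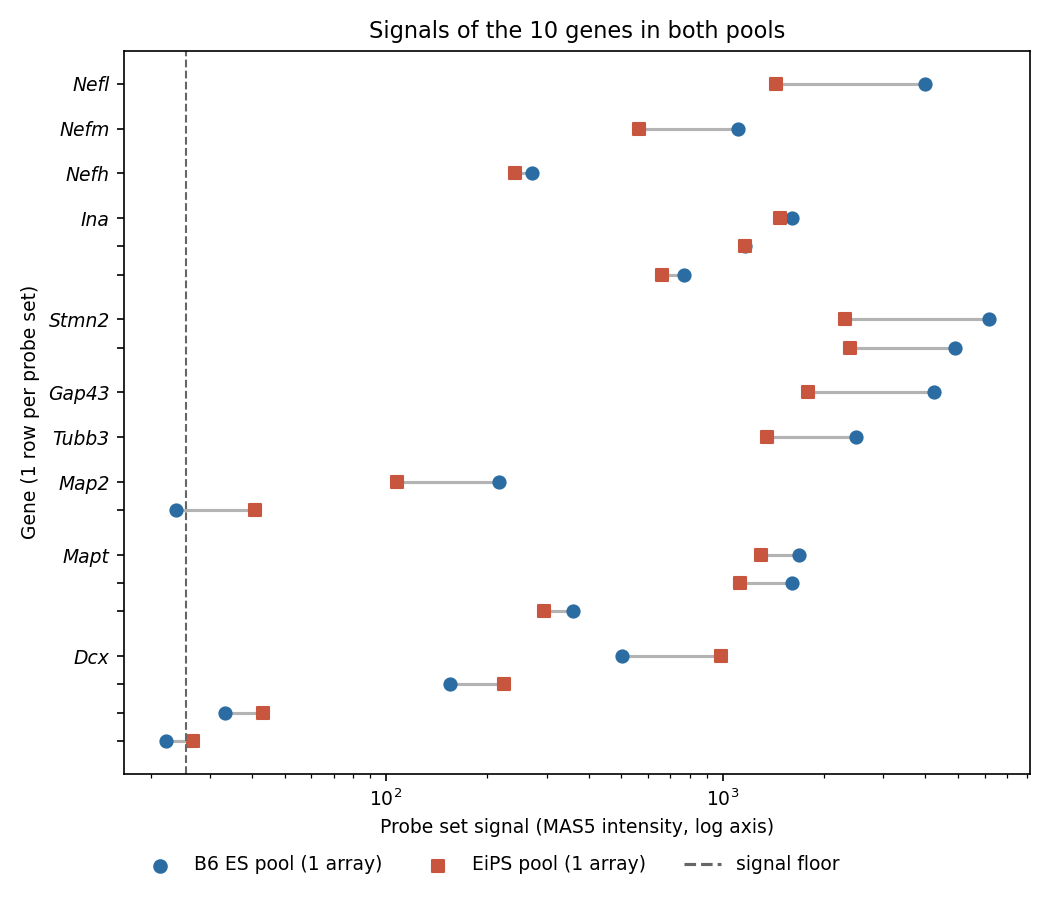
Signal of every probe set of the 10 genes in the B6 ES pool (circles) and the EiPS pool (squares), on a log axis in MAS5 intensity units. Each row is 1 probe set, the grey line joins its 2 arrays, and the dashed line is the floor of 25.4. Squares lie well to the left of circles for Nefl, Nefm, Stmn2, Gap43 and Tubb3, nearly overlie them for Ina, and lie to the right in all 4 rows of Dcx.

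Sequence upstream of the gene was read for 4 of the genes. It is shown for the range of base composition within the set, which is lowest in G and C for the Dcx window read. The 4 were those matched in the RefSeq window table, not chosen by their differences, and Ina hardly differed between the pools, so composition is not set against direction here. Dcx had 2 windows there, of which only the first listed was read, while Ina, Tubb3 and Map2 had 1 each. The bases are from RefSeq windows on build GRCm38.p6, printed 5′ to 3′ on the gene's strand and ending at the base before the annotated gene. Capitals mark the GC box letters GGGCGG on either strand.
Ina, chr19:47014431-47014680, plus strand: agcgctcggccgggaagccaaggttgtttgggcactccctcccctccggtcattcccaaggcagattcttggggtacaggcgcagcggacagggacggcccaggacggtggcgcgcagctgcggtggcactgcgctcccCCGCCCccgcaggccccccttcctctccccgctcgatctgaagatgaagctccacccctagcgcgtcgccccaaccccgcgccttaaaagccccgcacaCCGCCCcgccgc
Tubb3, chr8:123411303-123411552, plus strand: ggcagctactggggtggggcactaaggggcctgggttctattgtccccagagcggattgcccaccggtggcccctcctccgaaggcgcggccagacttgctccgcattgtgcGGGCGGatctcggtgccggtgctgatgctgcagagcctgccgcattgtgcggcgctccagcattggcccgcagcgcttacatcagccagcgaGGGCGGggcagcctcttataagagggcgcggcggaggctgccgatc
Map2, chr1:66175079-66175201, plus strand: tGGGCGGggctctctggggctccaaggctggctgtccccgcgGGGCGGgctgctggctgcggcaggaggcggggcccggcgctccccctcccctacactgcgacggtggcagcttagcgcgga
Dcx, chrX:143933397-143933469, minus strand: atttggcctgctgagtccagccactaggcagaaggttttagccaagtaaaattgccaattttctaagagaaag

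Over the full windows of 300 bases, the share of G and C was 77.7% for Map2, 71.7% for Ina and 67.3% for Tubb3. It was 43.0% for the Dcx window read, 1 of 2, and the median over 32851 windows was 52.7%. The number of CG dinucleotides was 37, 32 and 26 for Map2, Ina and Tubb3, and 3 for Dcx (median over all windows, 7). GGGCGG, read on both strands, occurred 5 times in the Map2 window (3 of them past the bases printed), 2 times each in those of Ina and Tubb3 and not in that of Dcx; 35.7% of all windows hold it. TATAA, read on both strands, was found at 1 place each in the Tubb3 and Dcx windows, in Dcx past the bases printed, and not in the other two, and 24.9% of windows hold it. The E-box letters CANNTG were found 1 time, in the Ina window, and 72.3% of windows hold them. These counts describe the letters only. Nefl, Nefm, Nefh, Stmn2, Gap43 and Mapt were not analysed for sequence here.

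Within the neurofilament family the difference went from large to almost nil. Nefl, the light subunit around which the others assemble, gave 3987 signal units with B6 ES tumours and 1442 with EiPS tumours. That is 2.77-fold lower, a log2 difference of -1.47, and rank 111 from the lowest among the 10988 genes. Nefm, the medium subunit, had signals of 1112 and 565, which is 1.97-fold lower and just short of 2-fold (log2 difference -0.98, rank 360). On the mouse genome Nefl and Nefm are neighbours, with no protein-coding gene between them in the RefSeq gene table of GRCm38.p6.

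The heavy subunit and alpha-internexin hardly differed. Nefh, the subunit that accumulates late in axons, had signals of 271 and 242 (log2 difference -0.17, within 1 SD between probe sets, and 0.22 with poly-A scaling). Ina had signals of 1603 and 1479 by its brightest probe set, a log2 difference of -0.12 (0.27 with poly-A scaling). Its other 2 probe sets gave 1169 and 1169, and 766 and 659, so that all 3 lay between -0.22 and 0.00. The 3 Ina probe sets are annotated to the same accession and are not independent of each other. The 4 subunits therefore did not change in step: the log2 difference of Nefl less that of Ina was -1.35, a 2.55-fold unequal change, and that of Nefm less that of Ina was -0.86. These contrasts are within the 2 arrays and do not depend on a constant factor between them.

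The growth-associated genes Stmn2 and Gap43 were both more than 2-fold lower in the EiPS pool. Stmn2 had signals of 6167 and 2317 by its brightest probe set (2.66-fold lower, log2 difference -1.41, rank 132). Its other probe set gave 4908 and 2385, 2.06-fold lower. Both Stmn2 probe sets are annotated to the same accession. Gap43 had signals of 4243 and 1796, 2.36-fold lower (log2 difference -1.24, rank 201). Among compared genes with a mean signal over 1000, to which both belong with Nefl, Tubb3, Ina and Mapt, 3.07% were at least 2-fold lower. Of these 6 bright genes, 3 were (Nefl, Stmn2 and Gap43).

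Tubb3 was lower by somewhat less. Its signals were 2496 for B6 ES and 1353 for EiPS, 1.84-fold lower (log2 difference -0.88, rank 457 from the lowest). The difference is 3.06 times the SD between probe sets at that signal, but Tubb3 has 1 probe set, as have Nefl, Nefm, Nefh and Gap43, so its own probe sets give no check.

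The 3 microtubule-associated protein genes went different ways. Map2 had signals of 217 and 108 by its brighter probe set, 2.01-fold lower (log2 difference -1.01, rank 330), which puts it just past 2-fold. Its other probe set went the opposite way, from 23.8, under the floor, to 41.0, at least 1.61-fold higher. It lies near the floor, at mean signals (under 100) where compared genes had a median of 0.22 and the SD between probe sets was 0.50. The Map2 value thus rests on the choice of probe set, and the mean of both gave a log2 difference of -0.11. Of compared genes with mean signals from 100 to 1000, where Map2, Nefm, Nefh and Dcx lie, 2.89% were at least 2-fold lower.

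Mapt, which encodes tau, had signals of 1685 and 1304 by its brightest probe set, 1.29-fold lower (log2 difference -0.37, and 0.02 with poly-A scaling). The other 2 gave 1610 and 1125, and 359 and 296, and all 3 lay between -0.52 and -0.28. The direction was shared by the 3 probe sets, of which the 2 brighter ones are annotated to the same accession. The size, however, is 1.28 times the SD between probe sets at the signal of the brightest (0.29). It is under the SD of 0.41 that held from 100 to 1000, where the dimmest Mapt probe set lies.

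Dcx was higher in the EiPS pool by every one of its probe sets. The brightest gave 504 and 991, 1.97-fold higher, which is just short of 2-fold (log2 difference 0.98, rank 10308 from the lowest). The next gave 155 and 225, and the third 33.3 and 43.1, with log2 differences of 0.54 and 0.37. The dimmest gave 22.2, under the floor, and 26.6, at least 1.05-fold higher. The direction was the same in all 4, and the size declined with the signal. Compared genes with mean signals under 100 had a median of 0.22, and the SD between probe sets there was 0.50. The third and the dimmest Dcx probe sets lie at such signals and so add little on direction. The log2 difference of Nefl less that of Dcx was -2.44, a 5.44-fold unequal change, and that of Stmn2 less that of Dcx was -2.39.

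**Figure D2:**
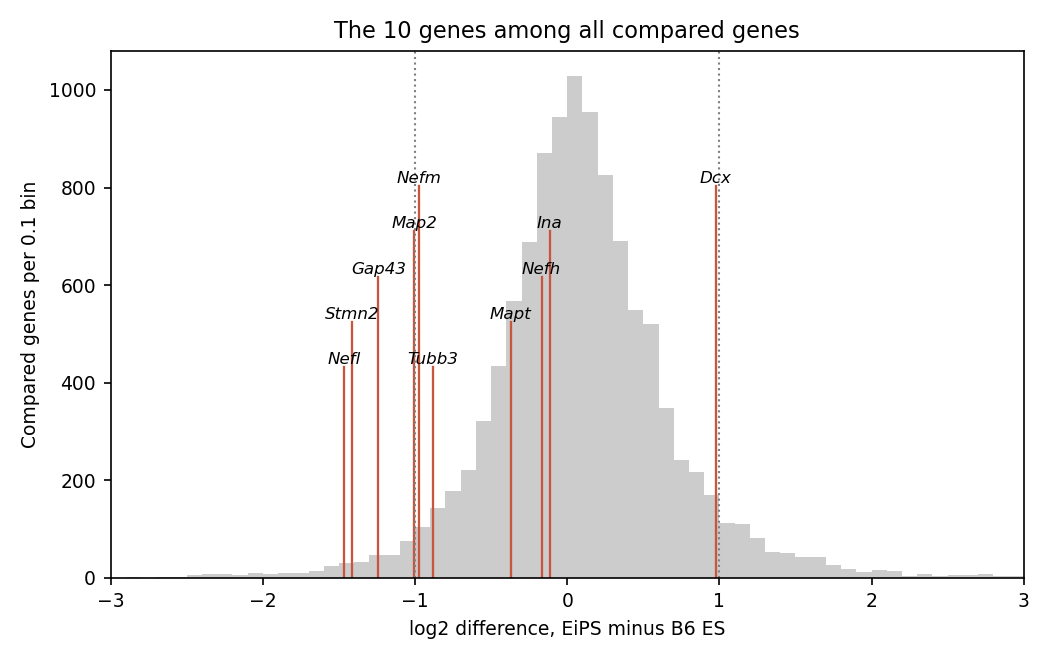
Distribution of the log2 difference (EiPS minus B6 ES) over the 10988 compared genes, in bins of 0.1, with the 10 genes as labelled lines; dotted lines mark 2-fold. The axis runs from -3 to 3 and leaves out 22 genes. Nefl, Stmn2 and Gap43 lie in the left tail, Map2 and Nefm at the 2-fold line, Mapt, Nefh and Ina within the bulk, and Dcx at the 2-fold line on the right.

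The remaining genes of the neuronal cytoskeleton were examined in 8 lists of 108 genes, of which 92 could be compared. In the EiPS pool 69 were lower and 23 higher, with a median log2 difference of -0.29, against 0.07 over all compared genes. At least 2-fold lower were 4 (4.35%, against 3.04% of all compared genes), and at least 2-fold higher was 1 (1.09%, against 5.82%). Lower signals by any amount made up 75% of these genes, against 43.7% of all (38.0% against 16.5% with poly-A scaling, where the median of the 92 genes was 0.10), but differences of the size seen for Nefl, Stmn2 and Gap43 were few. The lists, too, were chosen with earlier results of these data known.

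The tubulins, which form the wall of the microtubule, were mostly lower with the authors' scaling. Of 13 compared, 11 were lower, 1 by at least 2-fold, and the median was -0.36 (7 of 13 lower and a median of -0.08 with poly-A scaling). Tuba8 had signals of 113 and 54.2 (2.08-fold lower), Tuba4a of 5970 and 3198 (1.87-fold, with 3 probe sets from -1.42 to -0.39) and Tubb4a, a beta-tubulin of brain, of 786 and 445 (1.77-fold). The others given here were named after their values were seen. Tubb6 (3501 and 2043) differed by -0.78 and Tubb2a (8331 and 4928) by -0.76, with the other Tubb2a probe set at -0.33. Tubb4b (4454 and 3528) differed by -0.34, with 3 probe sets above the floor from -0.34 to 0.46. Tuba1a (14278 and 14416) hardly differed. Tubb5 (7465 and 7729) hardly differed by its brightest probe set, with the other at 0.45.

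With the authors' scaling, the relatives of Stmn2 showed smaller differences of the same direction, other than Stmn1. Of the 8 other stathmins and collapsin response mediators, which regulate microtubules in growing axons, 7 were lower, none by 2-fold. The median was -0.55 (6 of 8 lower and a median of -0.16 with poly-A scaling). Stmn4 had signals of 2359 and 1418 (1.66-fold lower) and Dpysl5 of 382 and 243 (1.57-fold). Dpysl2 was at least 1.67-fold lower, from a low signal of 42.4. Stmn1, another stathmin, was 1.11-fold higher (8344 and 9270, named after its value was seen).

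Among 15 compared other microtubule-associated proteins, 12 were lower, none by 2-fold, and the median was -0.25 (0.13 with poly-A scaling). Map1b, which binds microtubules in growing axons, had signals of 3355 and 2154 (1.56-fold lower), and Map6 of 232 and 146 (1.59-fold). Pafah1b1, a dynein regulator of neuron migration, was 1.71-fold lower by the brightest of its 4 probe sets, which ran from -0.78 to 1.74. Dclk1, the close relative of Dcx, had signals of 2027 and 2391, a log2 difference of 0.24, with 5 probe sets above the floor from -0.41 to 0.31 (named after its value was seen).

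Growth cone and adhesion proteins were lower in 12 of 17 cases, with a median of -0.31 (0.08 with poly-A scaling). Cntn1, an adhesion protein of axons, had signals of 2992 and 1018 and was 2.94-fold lower, with its other probe set at -0.84. L1cam, which guides and bundles axons, was 1.80-fold lower (1525 and 846). Tmod2, a neuronal actin-capping protein, was 1.71-fold lower by its brightest probe set, with others up to 1.39. Of 15 axonal transport motors, 12 were lower (median -0.32, and 0.07 with poly-A scaling). The kinesin Kif1a was 2.05-fold lower (525 and 255), although its other probe set stood at 0.24. Dync1i1, a dynein chain, was 1.91-fold lower (749 and 393), and Klc1 1.76-fold, with 3 probe sets from -1.11 to 0.32.

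Kinases that act on tau and neurofilaments, and the spectrin skeleton under the membrane, stayed nearer to 0. Of 12 kinase genes and activators, 8 were lower (median -0.15, and 0.24 with poly-A scaling). Cdk5r2, an activator of the neuronal kinase Cdk5, was 2.06-fold lower (633 and 307). The kinase gene Mapk10 was 1.88-fold higher by its brighter probe set and at -0.29 by the other, and Mark2 was 1.26-fold higher. Of 8 spectrin and ankyrin skeleton genes, 6 were lower (median -0.21, and 0.18 with poly-A scaling). Epb41l3 was 1.57-fold lower, Epb41l1 1.52-fold and Add3 1.33-fold, the latter pair with probe sets on both sides of 0.

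The other intermediate filaments of the neural lineage were mostly higher. Of 4 compared, 3 were higher, and the median was 0.69. Prph encodes peripherin, a filament protein of peripheral neurons, and had signals of 48.4 and 105 (2.17-fold higher), from a signal close to the floor; 1 of its 4 probe sets was above the floor on both arrays. Gfap, the filament of astrocytes, was 1.91-fold higher (1844 and 3521) by its brighter probe set, with the other at 0.50. Vimentin (Vim), made by many cells outside the nervous system, was 1.37-fold higher (10212 and 14007). Nes, which encodes nestin, the filament of neural progenitors, was lower (850 and 655, log2 difference -0.38; named after its value was seen), with its 3 probe sets from -0.38 to 0.55. With a floor of 100 the median of the list was 0.26.

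**Figure D3:**
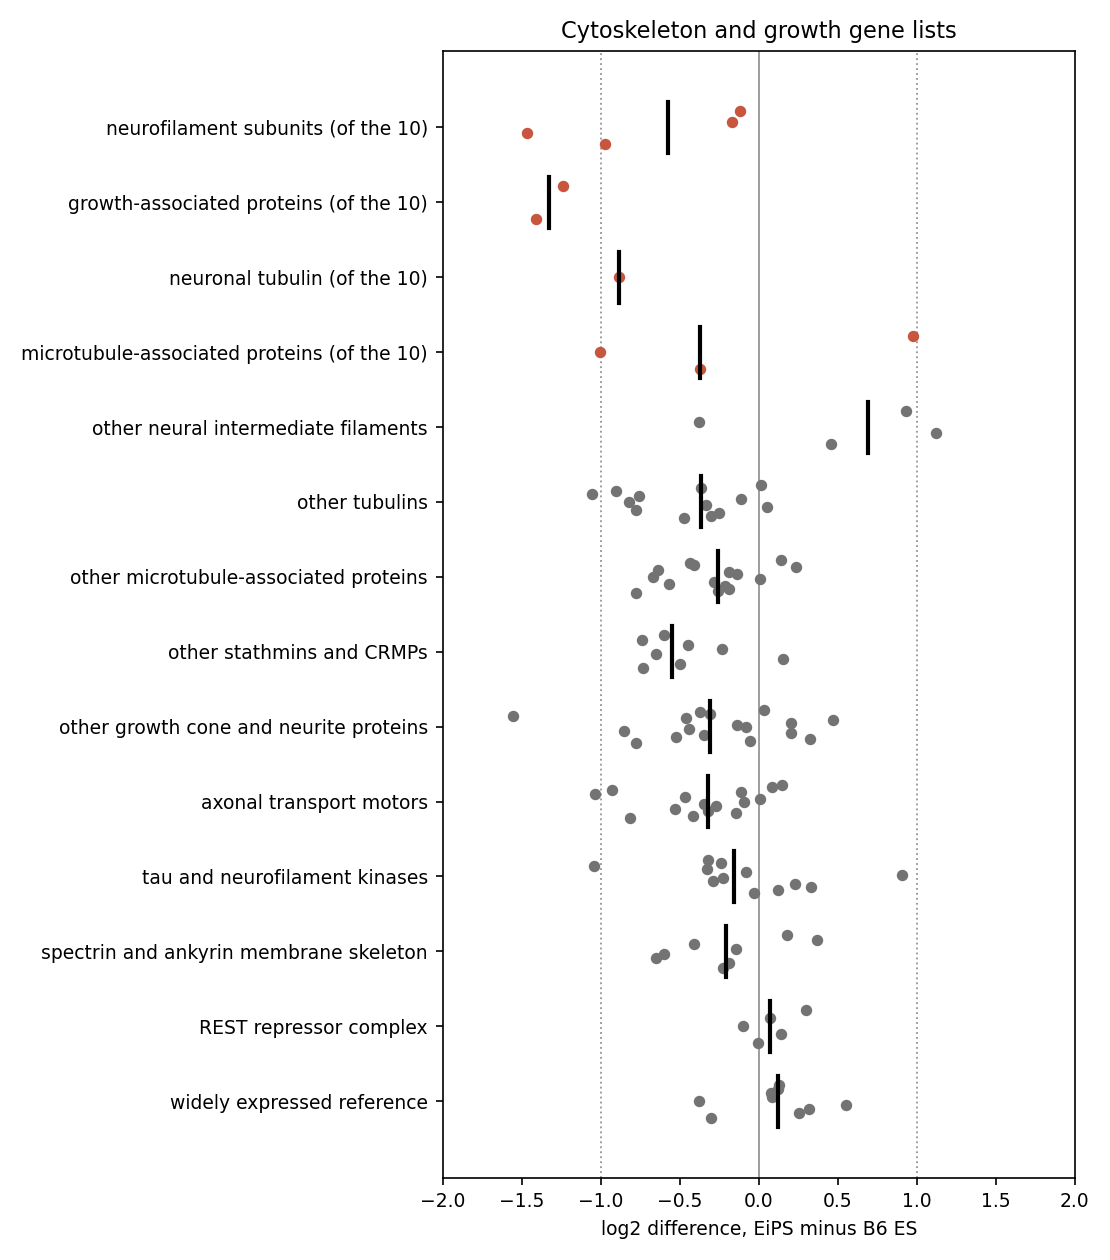
Log2 difference (EiPS minus B6 ES) of each compared gene in the cytoskeleton and growth lists. Points are genes, short black bars are list medians, and dotted lines mark 2-fold; the 10 genes are in colour in the top 4 rows. The 7 grey lists from tubulins to the membrane skeleton have medians between -0.55 and -0.15 with the authors' scaling, and the other neural intermediate filaments at 0.69.

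The labelled tissue gives no cell type, so the 10 genes were set beside markers of the cells that a teratoma can hold. General neuron markers were present and lower: by brightest probe set, all 11 of 11 were lower in the EiPS pool, with a median of -0.57 (8 of 11 and -0.18 with poly-A scaling). The number lower was 10 of 11 with probe sets averaged and 9 of 11 with the lowest probe set. Their summed signal was 13323 for B6 ES and 8238 for EiPS, a ratio of 0.62. Slc17a6, a glutamate transporter of excitatory neurons, was 4.48-fold lower (1142 and 255), Th, of dopamine and noradrenaline neurons, 3.56-fold (135 and 37.9), and Syt1, a synaptic vesicle protein, 1.97-fold (118 and 59.8). Rbfox3, a marker of mature neurons, and Elavl3, an RNA-binding protein of neurons, differed by -0.15 and -0.14 (named after their values were seen). The 3 probe sets of Elavl3 ran from -0.14 to 0.12. In bulk tissue, fewer neurons and less of these RNAs per neuron cannot be told apart.

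Markers of sensory and autonomic neurons had 2 compared genes of 6, Isl1 (-0.04) and Ret (0.25), while Scn9a was under the floor on both arrays. Neural progenitor markers were lower in 4 of 5, with a summed signal of 16615 and 12838 and a median of -0.39 (0.00 with poly-A scaling, and -0.92 with probe sets averaged). Hes5 was 4.31-fold lower by its brighter probe set, with the other at -0.83. Olig2 was 2.89-fold and Pax6 1.31-fold lower, and Sox1 was under the floor on both arrays. Astrocyte and oligodendrocyte markers had a median of 0.15 (-0.14 with hybridisation spike-in scaling), with 5 of 6 higher and a summed signal of 18717 and 21764. The number higher was 3 of 6 after quantile normalization, equal medians or loess scaling, and 2 of 6 with hybridisation spike-in scaling. Mobp was 7.58-fold higher by the brightest of 3 probe sets (0.43 to 2.92), and Aqp4 1.69-fold lower. Schwann cell markers, of interest because such cells can also make Gap43, had a median of -0.04 over 4 genes and a summed signal of 3525 and 3359. The median was 0.35 with poly-A scaling, 0.12 without shared probe sets, 0.08 with probe sets averaged and 0.20 with the lowest probe set. Sox10 was 2.36-fold lower by its brightest probe set, which is shared by several transcripts, with another at -0.54.

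Other cell types that share some of these genes, or whose markers moved, were also examined. Of 6 neuroendocrine markers, 4 were lower, with a median of -0.63 (-0.24 with poly-A scaling) and a summed signal of 11254 and 9311. Whether these signals came from neuroendocrine cells or from neurons was not tested. Sst was 2.36-fold lower, Chga 1.59-fold and Pcsk1 at least 2.20-fold. Markers of skeletal muscle (8 of 8 lower, median -1.88, summed signal 49180 and 20435) and of smooth muscle (6 of 6 lower, median -1.34, 16114 and 9669) had lower medians than the neuronal ones. The ratio of summed signals was 0.42 for skeletal and 0.60 for smooth muscle, against 0.62 for neurons. The largest part of the smooth muscle sum was Acta2 (7817 and 6552, named after its value was seen), which differed by -0.25 only. Smooth muscle markers were lower in 5 of 6 with poly-A scaling, averaged or lowest probe sets, and in 3 of 4 without shared probe sets. Myh4 was 21.8-fold, Mb 6.02-fold and Cnn1 4.25-fold lower. Melanocyte markers, whose cells can make Tubb3, were close to the floor: Tyr and Tyrp1 were under it on both arrays, and 2 of 5 genes were compared, with Dct at least 2.05-fold higher and Pmel at 0.03. Keratinocyte markers (5 of 5 higher, median 0.35, summed signal 2113 and 3316) ran the other way, with Lor 4.18-fold higher. Macrophage markers were mixed (2 of 4 higher, 4 of 4 with poly-A scaling, median 0.45, or 0.95 without shared probe sets, summed signal 7360 and 11335): Cd68 was 2.09-fold and Lyz2 1.93-fold higher, while Csf1r differed by -0.14 and Adgre1 by -0.05. The part of tissue makeup in the differences of the 10 genes was not tested.

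**Figure D4:**
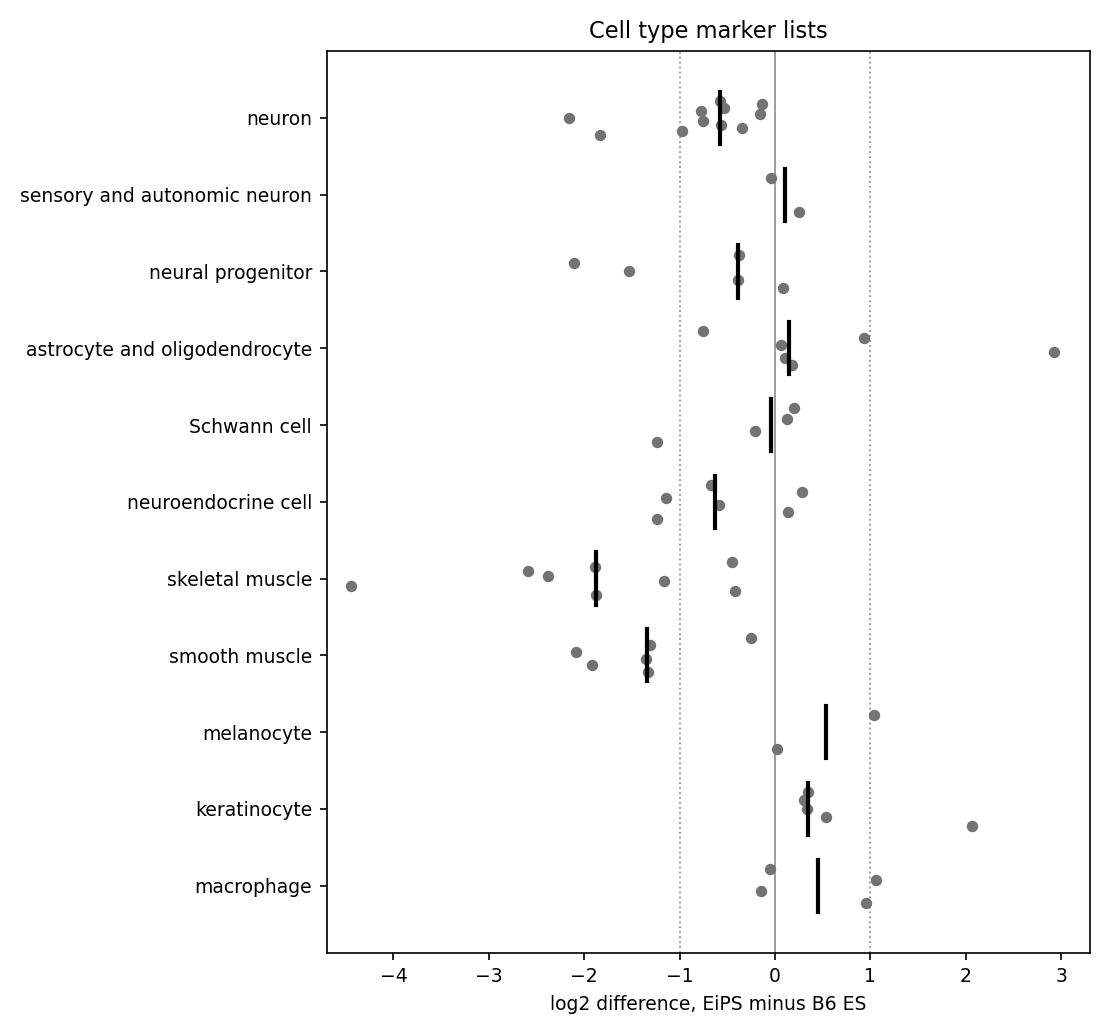
Log2 difference (EiPS minus B6 ES) of each compared marker gene, by cell type. Points are genes, black bars are medians and dotted lines mark 2-fold. With the authors' scaling and the brightest probe sets, all neuron, skeletal muscle and smooth muscle markers lie below 0, and all keratinocyte markers above it. With poly-A scaling 8 of 11 neuron and 5 of 6 smooth muscle markers are below 0. With probe sets averaged, 10 of 11 and 5 of 6 are.

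Regulators and reference genes had medians near that of all compared genes. The 5 genes of the REST complex, which represses neuronal genes in cells other than neurons, had a median of 0.07 (-0.21 with hybridisation spike-in scaling, 0.46 with poly-A scaling). Rest had signals of 369 and 407, Rcor1 of 523 and 489 (with 3 probe sets from -0.66 to 0.25), and Hdac1 of 919 and 1128. Of 9 widely expressed reference genes, 7 were higher, with a median of 0.12 (2 of 9 and -0.16 with hybridisation spike-in scaling, 9 of 9 and 0.51 with poly-A scaling); the largest differences were 0.55 for Pgk1, -0.38 for Hprt and 0.32 for Rplp0.

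Control probe sets gave mixed readings of how the 2 arrays should be scaled. The signal ratio of the 3′ to the 5′ control probe set was 1.35 and 1.49 for Actb, in the B6 ES and EiPS pools, and 0.83 and 0.80 for Gapdh. All 18 probe sets of the hybridisation spike-ins (bioB, bioC, bioD and cre) were higher on the EiPS array, by 0.28 on the log2 scale on average. Of 24 probe sets of the poly-A controls (dap, lys, phe and thr), 22 were lower there, with a mean difference of -0.39, and the 3 probe sets of 18S ribosomal RNA were also lower, averaging -1.85. Scaled to the hybridisation spike-ins, the median of all compared genes was -0.21 and that of the 10 genes -1.21. Nefm and Tubb3 were then also at least 2-fold lower, at -1.26 and -1.16, while Dcx was higher by 0.69. Scaled to the poly-A controls, the medians were 0.45 and -0.54. Nefl and Stmn2 then stayed at least 2-fold lower, at -1.08 and -1.02, Gap43 was at -0.85, Map2 at -0.62 and Dcx at 1.37. Each scaling applies a constant factor to a whole array and shifts all genes alike. The gap between the median of the 10 genes and that of all compared genes could therefore hardly change, and is no separate check. The share of all compared genes at least 2-fold lower and higher was 6.49% and 3.33% with the hybridisation spike-ins, 1.29% and 13.6% with the poly-A controls, and 4.04% and 4.51% after quantile normalization. The part of labelling or RNA quality in these values was not tested.

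**Figure D5:**
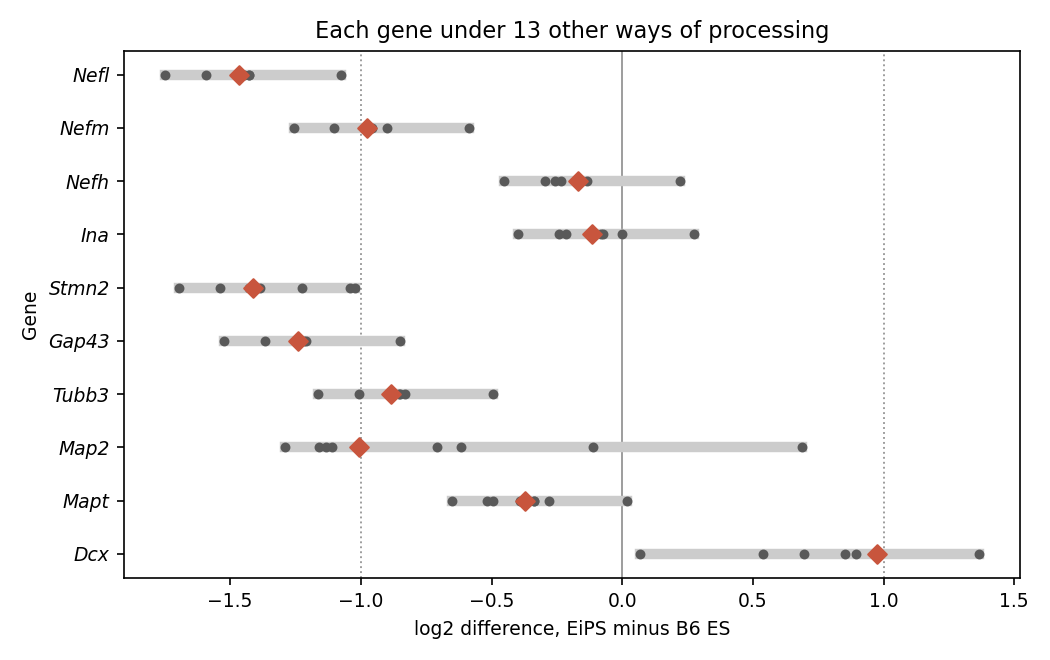
Log2 difference (EiPS minus B6 ES) of each of the 10 genes as reported (diamonds) and under 13 other ways of processing (dots, with a grey bar over their range); dotted lines mark 2-fold. Nefl and Stmn2 stay below -1 in all 13, Gap43 in 12, Dcx stays above 0, and Map2, Mapt, Nefh and Ina reach both sides of 0. Not every alternative could move a gene: other floors could move none of the 10. The choice of probe set could not move Nefl, Nefm, Nefh, Gap43 or Tubb3, which have 1 probe set each.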

How the data were processed

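The deposited table holds linear intensity values per probe set, which the authors made with Affymetrix Expression Console and MAS5 per the submitters' processing notes. The sources used here name no scaling target or software version; detection calls were left aside. Both arrays had the same mean signal (500.2) after 2% trimming at each end, so they came already scaled, and nothing was rescaled for the reported values. Probe sets took their gene from GEO's platform annotation, updated by Entrez identifier in RefSeq's gene table (GRCm38.p6, names only): 20380 of 22690 had 1 symbol, of which 20351 matched.

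Where a gene had several probe sets, the one with the highest mean log2 signal gave its value. The floor, 25.4, is the 90th percentile of 68 probe sets of odorant, vomeronasal and bitter taste receptors. Signals under it were set to it, and the resulting bound is written "at least"; 1405 genes under it on both arrays were left out. With 1 array per group no test was run, and that number of arrays limits the precision.

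The 10 genes and the 21 comparison lists were chosen with earlier results of these data known. In each list up to 3 genes with the largest absolute difference are named, and the largest opposite one if past 2-fold; others are marked as chosen after their values were seen. No genes were sought for likeness of pattern, since 2 arrays give 1 difference per gene. The computation was tested on simulated data. Python 3.11.15, pandas 2.3.3, numpy 2.4.6 and statsmodels 0.14.6 were used. Alternatives covered the floor, pseudocount, scaling and choice of probe set.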

Additional observations from a re-analysis of the deposited data

How the results depend on the processing

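Each difference was recomputed in 11 other ways, and in 2 chosen after seeing the data, scaling to the hybridisation spike-ins and to the poly-A controls. Without replicates, a value was taken as moved if it shifted by 0.40 or more on the log2 scale, the SD between probe sets of a gene at all signals. Among the 10 genes this held for Map2 and Dcx with probe sets averaged (-0.11 and 0.54), for Dcx with the lowest probe set (0.07), and for Map2 with the lowest probe set, where it reversed to 0.69. Other floors could not alter the 10 values, since each signal used was over 100. The choice of probe set could not alter Nefl, Nefm, Nefh, Gap43 or Tubb3, which have 1 probe set each. Poly-A scaling shifted every gene by just under that limit, and Nefh, Ina and Mapt then changed sign (0.22, 0.27 and 0.02). Ina, at -0.12, came to 0.00 without probe sets shared by several transcripts. The median of the 10 genes ran from -1.21 to -0.54, and the number at least 2-fold lower from 2 to 6: 6 with equal medians or spike-in scaling, 2 with poly-A scaling, and 3 with log2(signal + 64), with averaged or with lowest probe sets. The share of all genes at least 2-fold lower was 5.81% with no floor, 1.51% with log2(signal + 64), 6.49% with spike-in scaling and 1.29% with poly-A scaling. The share at least 2-fold higher was 10.1%, 2.01%, 3.33% and 13.6% under the same settings, and 3.39% with a floor of 100. Medians that moved as far were those of neural progenitors (-0.92) and skeletal muscle (-1.34) with probe sets averaged, macrophages without shared probe sets (0.95), other neural intermediate filaments with a floor of 100 (0.26), and melanocytes with a higher floor (0.08) or the lowest probe set (0.03). The cause was not tested. No paired analysis was possible because each group has 1 array. Low signals, such as those of Prph, the dimmer Map2 probe set and the dimmest of Dcx, lie near the floor and carry the most noise.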
